A study of Mus musculus with 2 samples.

Results

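The genes described here are 10 long non-coding RNAs of the mouse, Pvt1, Meg3, H19, Neat1, Malat1, Gas5, Snhg1, Snhg12, Rian and Mirg, among 22911 genes that could be named on the arrays. They were chosen by measured values, gathered around Pvt1 because its difference was among the highest on the Nrdc-cKO array, so the differences between the arrays are given as a description. A member was measured by every non-control probe whose RefSeq accession belongs to that gene. By this rule 8 members had 13 probes in all, and Malat1 and Gas5 had no matching probe and were not analysed here.

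The study asked what nardilysin, a metalloendopeptidase encoded by Nrdc, does in the exocrine pancreas. The Nrdc-cKO group carried Ptf1a-Cre and Nrdc flox/flox, so that Cre under the gene Ptf1a removes Nrdc in cells that have expressed this factor of pancreatic progenitors and acinar cells, while other cells of the organ keep the gene. The other group was labelled WT, and whether it carried Cre or floxed alleles, and how many mice went into a sample, are not given in the sources used here. Both samples were total RNA from whole pancreas of male C57BL/6 mice at 5 weeks, each put on 1 Agilent 1-colour array after labelling with Cy3.

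Long non-coding RNAs are transcripts that are not translated into a protein of known function. Meg3, Rian and Mirg lie one after another in the Dlk1-Dio3 imprinted region, are transcribed from the maternal chromosome, and are hosts of microRNAs and small nucleolar RNAs. H19 is the maternally expressed partner of the growth factor gene Igf2. Pvt1 lies next to the Myc oncogene. Neat1 is the scaffold of nuclear paraspeckles, Malat1 is an abundant RNA of nuclear speckles, and Gas5, Snhg1 and Snhg12 carry small nucleolar RNAs in their introns while their spliced transcripts are known to be removed by nonsense-mediated decay.

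Some sequences help to show what these transcripts are. RefSeq (GRCm38.p6) places 15 microRNA genes inside Meg3, Rian and Mirg, of which 10 are in Mirg, and the arrays had no named probe for any of them, so only the host transcripts were measured. Inside the members lie 30 mature microRNAs, of which 19 come from Mirg. Examples are shown 5′ to 3′ with the seed, bases 2 to 8, in capitals, and the first pair is shown because these were the only 2 of the 30 that shared a seed.
mmu-miR-453 (Mirg): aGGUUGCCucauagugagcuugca
mmu-miR-496a-5p (Mirg): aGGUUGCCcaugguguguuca
mmu-miR-410-3p (Mirg): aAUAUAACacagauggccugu
mmu-miR-377-3p (Mirg): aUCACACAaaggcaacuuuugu
mmu-miR-370-3p (Rian): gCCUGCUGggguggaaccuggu
mmu-miR-770-5p (Meg3): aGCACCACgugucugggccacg
mmu-miR-675-5p (H19): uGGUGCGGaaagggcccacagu

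RefSeq promoter windows, which run from 250 bases before to 50 bases after a start site, were held for 7 of the members and for none of Pvt1, H19 and Neat1. They were searched on both strands for TGACGTCA, the cyclic AMP response element, for TATAAA, the core of the TATA box, and for CACGTG, the E-box bound by Myc with Max. Of 32851 windows, 1.79% held the first, 13.6% the second and 7.15% the third. The upstream Meg3 window (chr12:109540746-109541045, plus strand) is shown because Meg3, Rian and Mirg lie in a row and were all higher on the Nrdc-cKO array, and it held the response element 57 bases before the start and TATAAA once on each strand, in matches that overlap. The windows of Rian and Mirg and the second window of Meg3 held none of the 3 motifs. The response element was not particular to Meg3: of the 2 Gas5 windows, 1 held it 46 bases before the start. The Snhg1 window held TATAAA on the other strand, 29 bases before the start. The windows of Snhg1 (chr19:8723237-8723536, plus strand) and Snhg12 (chr4:132308428-132308727, plus strand) are shown because these hosts of small nucleolar RNAs had unequal differences. Such hosts are known for a run of pyrimidines at the start of the transcript, and each window had a run of 9 pyrimidines that overlapped or began within 5 bases of the start site, a length reached by 6.89% of all windows. Capitals mark the motif matches and, in the Snhg windows, the pyrimidine run. These matches are letters in a window and do not show that a factor binds there.
Meg3: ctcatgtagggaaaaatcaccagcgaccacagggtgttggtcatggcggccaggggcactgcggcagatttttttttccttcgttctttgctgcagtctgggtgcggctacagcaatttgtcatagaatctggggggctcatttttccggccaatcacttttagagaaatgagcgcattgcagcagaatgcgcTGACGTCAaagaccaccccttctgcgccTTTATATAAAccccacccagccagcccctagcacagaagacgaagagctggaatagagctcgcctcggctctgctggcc
Snhg1: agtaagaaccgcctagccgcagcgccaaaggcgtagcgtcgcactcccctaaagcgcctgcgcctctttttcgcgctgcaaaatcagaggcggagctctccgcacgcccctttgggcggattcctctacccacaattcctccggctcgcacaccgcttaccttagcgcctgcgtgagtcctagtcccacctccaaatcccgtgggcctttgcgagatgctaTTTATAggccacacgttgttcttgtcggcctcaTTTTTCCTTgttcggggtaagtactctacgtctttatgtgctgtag
Snhg12: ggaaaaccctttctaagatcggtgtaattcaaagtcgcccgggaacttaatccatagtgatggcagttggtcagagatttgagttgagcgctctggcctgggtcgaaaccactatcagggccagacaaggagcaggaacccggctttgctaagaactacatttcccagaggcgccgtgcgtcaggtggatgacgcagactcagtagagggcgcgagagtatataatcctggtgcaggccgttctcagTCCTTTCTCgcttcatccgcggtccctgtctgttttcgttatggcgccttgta

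Pvt1, Meg3, Rian, Mirg and Snhg12, or 5 of the 8 members measured, were higher in the Nrdc-cKO pancreas by 2-fold or more, 0 were lower by as much, and Neat1, Snhg1 and H19 lay within 2-fold. Of all 13001 genes with a value on each array, 12.8% passed 2-fold upward and 17.3% downward. At 4-fold the members numbered 4, with 3.73% of all genes past it upward, and since the members were gathered on this contrast nothing is read from their share. The median log2 difference, Nrdc-cKO minus WT, was 2.17 over the measured members and -0.18 over all genes. A level here is the log2 processed signal minus the 75th percentile of the same array, and a difference is taken between the levels of 1 probe on both arrays. Levels of different probes cannot be compared with each other. With 1 array per group there were no replicates, no test and no error across animals. Repeat spots gave the technical error alone: the SD of their difference had a median of 0.032 on the log2 scale over 286 probes, and reached at most 0.289 over the 3 of them with a WT signal under 50, the range in which several members lie. Different probes of the same gene disagreed more: over 3933 genes the SD of their differences had a median of 0.18 and reached 3.43. Pvt1, H19, Snhg1, Snhg12, Rian and Mirg each rest on 1 probe measured on both arrays.

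The whole series set some limits. Signal well above background was found at 46.3% of spots for WT and 60.3% for Nrdc-cKO, control spots aside. Nrdc itself, the targeted gene, was 9.25-fold lower in Nrdc-cKO by its 1 probe, and which part of the gene was deleted is not stated in the labels. The acinar markers were detected on both arrays in 15 of 15 genes. Spike-in scaling, the authors' value table and scaling to detected probes each moved all genes by the same amount. Quantile scaling, loess and normexp moved genes unequally. Relative to the scaling used here, the median gene stood 0.50 higher in the authors' value table, 1.90 higher with spike-in scaling and 0.06 to 0.26 higher with the other scalings and background corrections. Of the genes past 2-fold, 42.5% were higher here, against 53.0% with the 75th percentile of detected probes, 58.0% with normexp and quantile scaling, 59.7% with loess, 72.9% in the value table and 98.9% with spike-in scaling. With spike-in scaling, a difference between -1.90 and 0 in what follows therefore becomes positive.

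Pvt1, the RNA transcribed beside Myc, had the largest difference of the members. Its first probe had a processed signal of 14.4 for WT and 1280 for Nrdc-cKO, both well above background. The level went from -2.30 to 2.49, a log2 difference of 4.79 or 27.6-fold higher, which was the 9th highest of 13001 genes. Its second probe had a signal of 4.30 on the WT array, not well above background, and 418 on the Nrdc-cKO array. By the bound defined under the processing this gives at least 11.4-fold higher (measured levels -4.04 and 0.88). Both probes carry the same RefSeq accession and pointed the same way. The WT signal was close to background in both, and the size of the difference moved with the background correction, to 3.1 and 3.30 with normexp, where the direction stayed.

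Of the genes around Pvt1, those outside its span differed by less than 2-fold where both arrays measured them. Myc, the transcription factor gene on one side, had a level of 0.68 for WT and -0.30 for Nrdc-cKO, a difference of -0.98, with its 2 probes at -0.97 and -1.0. Lratd2, on the same side, stood at -0.11. On the other side, Gsdmc, which encodes a gasdermin, was well above background on the Nrdc-cKO array only and allowed no fold. Macroh2a3, annotated as a transcribed pseudogene within the span of Pvt1, stood at 3.04 by 1 probe, with levels of -2.40 and 0.64. Whether this probe also reads Pvt1 transcripts was not tested.

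**Figure D1:**
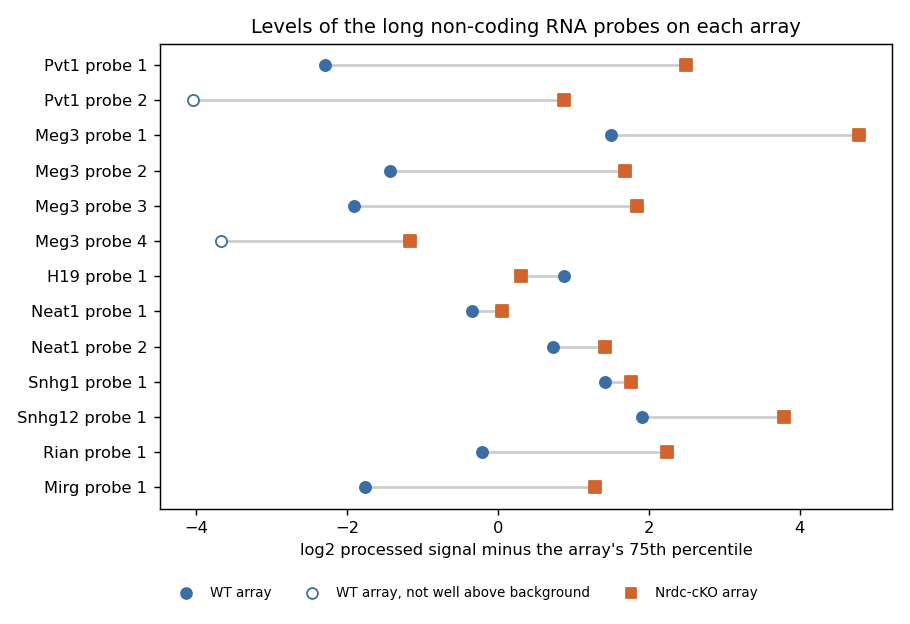
Levels of each probe of the long non-coding RNAs, as log2 processed signal minus the 75th percentile of its array (x axis), with circles for WT, open where not well above background, and squares for Nrdc-cKO. The squares lie to the right of the circles for 12 of the 13 probes, and H19 is the exception; levels of different probes are not on a common scale.

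The 3 transcripts of the Dlk1-Dio3 region were higher together. Meg3, a transcript known as a growth suppressor and as an RNA of pancreatic islets, had signals of 200 and 6287 (WT, then Nrdc-cKO) at its brightest probe. At its second probe the signals were 26.3 and 730, at the third 18.8 and 818, and at the fourth 5.58, not well above background, and 101. All 4 Meg3 probes were brighter on the Nrdc-cKO array. The log2 differences of the 3 probes measured on both arrays were 3.29, 3.11 and 3.76, with a mean of 3.39 or 10.5-fold, and the fourth probe was at least 2.76-fold higher (measured levels -3.67 and -1.17). The first and the second probe share a RefSeq accession, as do the third and the fourth.

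Rian, the transcript that carries the small nucleolar RNAs of the region, had a signal of 61.3 for WT and 1079 for Nrdc-cKO. Its level went from -0.21 to 2.25, a difference of 2.45 or 5.48-fold. Mirg, the microRNA host at the far end, had signals of 20.9 and 556. Its level went from -1.76 to 1.29, a difference of 3.05 or 8.29-fold. Over the 6 probes of Meg3, Rian and Mirg the differences ran from 2.45 to 3.76. This range counts the fourth Meg3 probe at 2.50 by its measured levels, though it was not well above background in WT. With normexp and 75th percentile scaling the differences were 2.56 for Meg3, 2.06 for Rian and 1.74 for Mirg, still past 2-fold, and Mirg moved the most of the 3 in size.

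Other genes of the region also pointed upward where they were detected. Dlk1, a paternally expressed gene that encodes a transmembrane ligand with EGF repeats, had a level of -1.18 for WT and 0.61 for Nrdc-cKO, a difference of 1.79. Dio3os, an antisense RNA at the other end, stood at 1.04, just past 2-fold. Begain was well above background on the Nrdc-cKO array only and at least 3.13-fold higher, and Dio3, an enzyme that inactivates thyroid hormone, likewise at least 1.19-fold higher. Rtl1, a paternally expressed gene derived from a retrotransposon, was not well above background on either array. Dlk1, Meg3, Rian, Mirg and Dio3os, the genes looked at here with a value on each array, were thus all past 2-fold, whichever parental chromosome they are known to be expressed from.

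H19, the other maternally expressed RNA, was not among the higher members. It had signals of 130 and 281, and its level went from 0.88 to 0.30, a difference of -0.57 that lies within 2-fold and was 1.32 with spike-in scaling. Its imprinted neighbour Igf2 stood at 0.08, with levels of -1.72 and -1.64, where the lowest detected level on the WT array was -2.64. The muscle-associated transcript Nctc1 on the other side stood at -0.72, the mitochondrial ribosomal protein gene Mrpl23 at -0.45 and the troponin gene Tnnt3 at 0.0040.

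Neat1, the paraspeckle scaffold, differed little. Its first probe had signals of 55.8 and 235 and its second 117 and 611, with log2 differences of 0.39 and 0.70 and a mean of 0.54. The mean was past 2-fold in the value table (1.04) and with spike-in scaling (2.44) only. Of the neighbours on its chromosome, Frmd8, a partner of the iRhom regulators of ectodomain shedding, stood at 1.32, while Slc25a45 was at -0.74. Beside Gas5, whose own transcript was not analysed here, Rc3h1 stood at 0.88 and Cenpl and Klhl20 at -0.18 and 0.45.

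Snhg1 and Snhg12, hosts of small nucleolar RNAs (snoRNAs), had unequal differences. Snhg1 had signals of 189 and 772, with a level of 1.42 for WT and 1.76 for Nrdc-cKO and a difference of 0.35. Snhg12 had signals of 266 and 3151, with levels of 1.91 and 3.79 and a difference of 1.88 or 3.69-fold. Snhg12 was the only member whose probe had a log2 signal of at least 8 on both arrays. Its difference ran from 1.88 to 2.38 in all settings but spike-in scaling (3.78), and was 2.14 with normexp and 75th percentile scaling. RefSeq places 8 small nucleolar RNA genes inside Snhg1 and 4 inside Snhg12, none of which had a named probe.

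Of the 4 measured neighbours of Snhg1, 2 were lower by more than 2-fold. Slc3a2, the heavy chain of amino acid transporters, stood at -1.23, and Wdr74, a factor of ribosome assembly, at -1.28, while the muscarinic receptor gene Chrm1 was at 0.92 and the syntaxin gene Stx5a at -0.72. Next to Snhg12, Taf12 stood at 0.031, Trnau1ap at 0.35, Rcc1 at -0.14 and the snoRNA host Snhg3 at 0.15. Over all members, 25 distinct neighbours were measured on both arrays, 3 of them past 2-fold upward and 2 downward, with a median of -0.11 beside -0.18 for all genes.

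**Figure D2:**
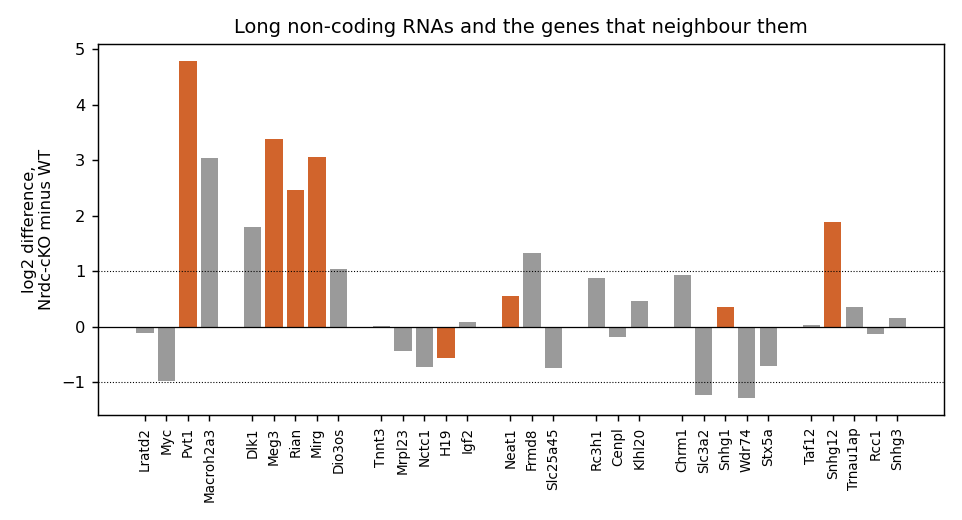
Log2 difference, Nrdc-cKO minus WT (y axis), of the measured long non-coding RNAs (orange) and of the genes beside or within them that are named in the text (grey), in blocks for Pvt1, the Dlk1-Dio3 region, H19, Neat1 with Malat1, Gas5, Snhg1 and Snhg12. Dotted lines mark 2-fold; the grey bars of the Dlk1-Dio3 block, at 1.79 and 1.04, lie above the upper line, and Myc beside Pvt1 is at -0.98.

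Set against other long non-coding RNAs with a value on each array, the higher members stood at or near the top of the range. Of 2594 genes annotated as lncRNA with a probe, 456 had a value on each array, and their median difference was -0.53; past 2-fold were 9.87% of them upward and 33.3% downward, or 45 against 152. That balance was 60 against 102 with loess, 80 against 86 in the value table and 291 against 10 with spike-in scaling. The Nrdc-cKO array alone detected 320 more of the 2594 genes, and the WT array alone 42. Such genes enter neither this balance nor the ranks among the 456. Pvt1 ranked 1st of the 456, Meg3 2nd, Mirg 3rd and Rian 4th, Snhg12 was 11th, Neat1 78th, Snhg1 97th and H19 237th. These ranks describe a choice made on the same values. With normexp and 75th percentile scaling Pvt1 stayed 1st and Meg3, Snhg12, Rian and Mirg were 3rd, 5th, 6th and 11th. With no filter on dim probes, among all 2594 genes, Pvt1 was 1st, Meg3 9th, Mirg 13th, Rian 29th and Snhg12 54th.

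**Figure D3:**
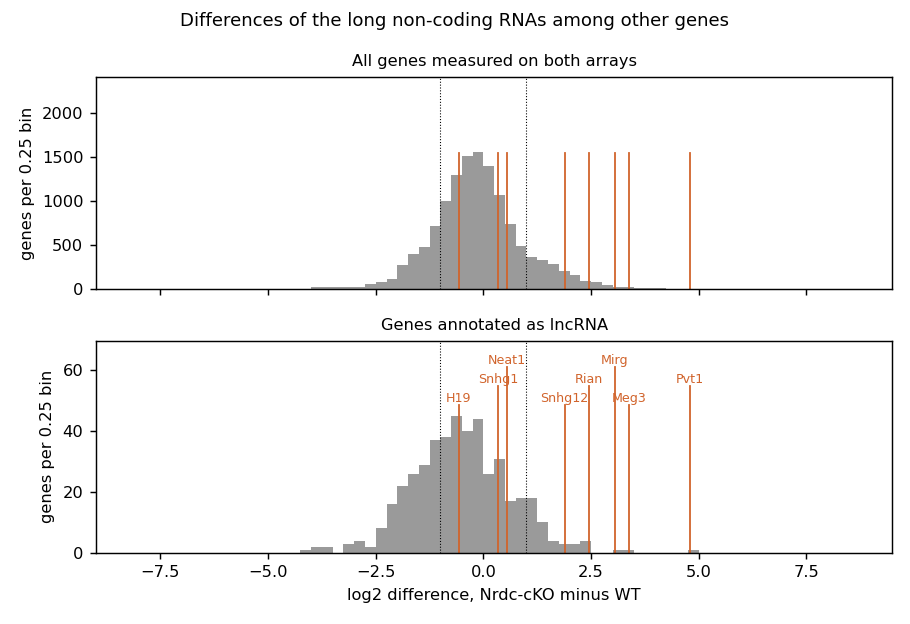
Number of genes (y axis) by log2 difference, Nrdc-cKO minus WT (x axis, bins of 0.25), for all 13001 genes measured on both arrays and for the 456 annotated as lncRNA, with the measured long non-coding RNAs described here as orange lines. Dotted lines mark 2-fold; Pvt1 at 4.79 lies to the right of every other lncRNA gene.

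Other snoRNA host genes also spread on both sides of Snhg1. Of 18 listed, 12 had a value on each array, with a median of 0.19. Past 2-fold were 3 of them upward and 0 downward, beside 12.8% and 17.3% of all genes. Snhg5 stood at 1.78, Epb41l4aos at 1.40 and Snhg8 at 1.27, and the lowest were Snhg9 at -0.78 and Snhg6 at -0.52. Genes annotated as snoRNA, which guide the modification of other RNAs, had a median of -1.35, with 0 of 9 past 2-fold upward and 55.6%, or 5, downward. They were looked up after the first results were known, and none lies inside Snhg1, Snhg12, Rian or Gas5. Snord17 stood at -4.64, Snora47 at -3.77 and Snora81 at -2.94, and the others ran up to -0.42. Under spike-in scaling the median turned to 0.54, with 2 past 2-fold upward and 3 downward. With normexp and quantile scaling the median was -0.47, with 3 downward, and with quantile scaling alone 7 were downward.

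The proteins of the small nucleolar ribonucleoproteins, which bind the RNAs that such hosts carry, had a median of -0.22 with 0 of 15 past 2-fold either way, from -0.63 for the assembly factor Nolc1 and -0.52 for Nop10 to 0.16 for the helicase Ruvbl2 and 0.24 for nucleolin, Ncl. Factors of nonsense-mediated decay had a median of -0.18 with 0 of 9 past 2-fold. The helicase Upf1 stood at -0.18, Upf2 at -0.46 and Smg6 at -0.40, while Smg1 was at 0.55 and Smg9 at 0.78.

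The protein partners of Neat1 and Malat1 were near the bulk of genes. Of 18 paraspeckle proteins 0 were past 2-fold either way, with a median of 0.11, and the core proteins Nono and Sfpq stood at -0.40 and 0.016. The range ran from Dazap1 at -0.83 and Fam98a at -0.48 to Hnrnph3 at 0.79 and Rbm12 at 0.92. Of 20 nuclear speckle proteins 0 were past 2-fold, with a median of 0.14. There the splicing factors Srsf6 (-0.70) and U2af1 (-0.38) were lowest, and Srsf3 (0.83) and Tra2a (0.84) highest.

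The Myc family and its partners, listed because of the place of Pvt1, had a median of -0.92. Of 9, 2 passed 2-fold downward and 0 upward, beside 17.3% and 12.8% of all genes. Mycn stood at -1.92 and Mlx at -1.74, with the 2 Mlx probes at -2.09 and -1.39, and the highest were Mxi1 at -0.22 and Mnt, a repressor that competes with Myc for Max, at 0.59. Max itself had probes that disagreed, at -2.21 and 0.37. Relative to the median of all genes the list stood at -0.74, and at -0.34 with normexp and 75th percentile scaling and -0.16 with bright probes only. With spike-in scaling all genes stood 1.90 higher, and of the 9 only Mycn then stays below 0.

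Imprinted genes, listed because of Meg3, Rian, Mirg and H19, had a median of 0.89, and 7 of the 14 with a value on each array passed 2-fold upward and 1 downward, beside 12.8% and 17.3% of all genes. The amino acid transporter Slc38a4 stood at 3.56 and Mest at 2.56. Gnas, the stimulatory G protein subunit, was at -0.41, with 4 probes from -0.94 to 0.99, and Snrpn, a splicing protein gene, at -1.05. The Nrdc-cKO array alone detected 5 more of the list of 23, beside 2475 of 20013 protein-coding genes with a probe. The WT array alone detected 0 of the list and 152 of those protein-coding genes. Of the 5, Nnat was at least 18.6-fold higher and Peg3 at least 7.15-fold higher, both named after their values were seen. Dio3 was at least 1.19-fold higher, and Zim1 and Magel2 allowed no fold. The fibroblast proteoglycan Dcn, at 1.69, is also in the list of fibroblast markers below.

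Well known long non-coding RNAs outside these groups had a median of 0.38. Of 38 listed, 15 had a value on each array, and 13 with a probe were dim on each array. Of the 15, 2 passed 2-fold upward and 2 downward, beside 12.8% and 17.3% of all genes. Mir22hg, the host of a microRNA, stood at 2.36 and the imprinted antisense RNA Airn at 1.19, while Hottip, an RNA of the Hoxa cluster, was at -1.57 and Crnde at -1.11.

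**Figure D4:**
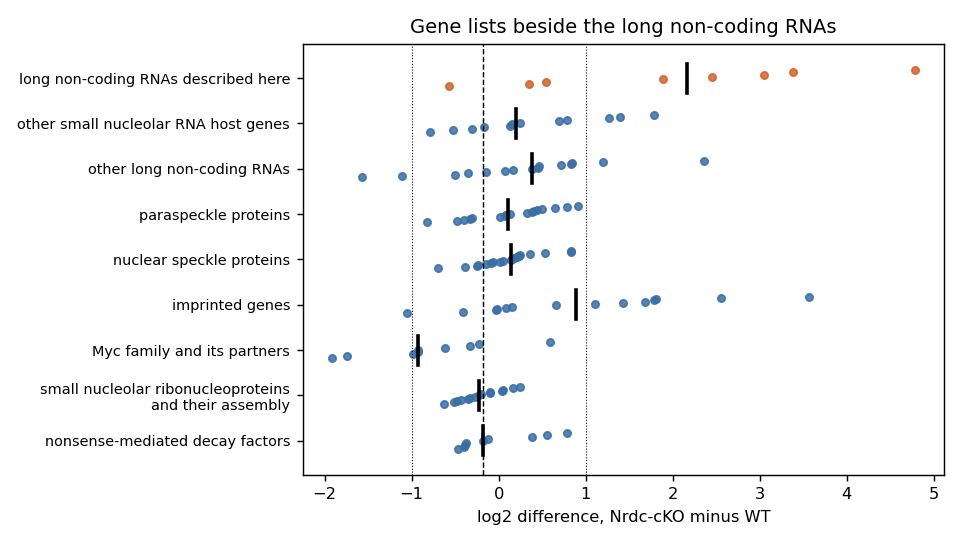
Log2 difference, Nrdc-cKO minus WT (x axis), of each gene measured on both arrays (points) in the 8 measured long non-coding RNAs (orange) and the 8 lists set beside them (blue), with the median of each list as a bar. The dashed line is the median of all genes, -0.18, and dotted lines mark 2-fold; no point of the paraspeckle, nuclear speckle, ribonucleoprotein or decay lists lies past 2-fold.

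The tissue on the arrays differed in its cell type markers, and these values stand beside all of the differences above. In bulk RNA a change in the number of cells of a type and a change in RNA per cell cannot be told apart. Of all genes with a value on each array, 12.8% passed 2-fold upward and 17.3% downward. Of 13 islet markers with a value on each array, 11 passed 2-fold upward and 0 downward, with a summed linear level, in units of each array's 75th percentile, of 385 for WT and 2964 for Nrdc-cKO, and Neurod1 was not well above background in WT. Fibroblast and stellate cell markers were higher in 10 of 10, with sums of 238 and 897. Macrophage markers were higher in 9 of 11 (74.7 and 183), duct markers in 4 of 9 with 2 lower (64.3 and 191) and endothelial markers in 3 of 8 with 0 lower.

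Fat cell markers were higher in 3 of 5 measured and lower in 1, with sums of 43.0 and 692, and Adipoq, Plin1, Cidec and Cfd were dim, that is not well above background, in WT. Lymphocyte markers were higher in 1 of 5 and lower in 1 (31.5 and 28.4), with Cd8a, Cd2, Cd79b and Ms4a1 among those dim in WT and Cd8a dim in Nrdc-cKO too. Among genes of the immediate early and heat shock response, which can move with tissue handling, 10 of 12 were past 2-fold upward (67.8 and 216). Whether handling moved them here was not tested. All 15 acinar markers were past 2-fold downward, with sums of 59280 and 14081. What part these shifts have in the values of Pvt1, Meg3, Rian, Mirg and Snhg12 was not tested.

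The members past 2-fold were the same in most ways of processing. Pvt1, Meg3, Rian, Mirg and Snhg12 were past 2-fold upward in each alternative in which they could be measured, with ranges of 3.1 to 6.68, 2.56 to 5.28, 1.96 to 4.35, 1.74 to 4.95 and 1.88 to 3.78. With bright probes only, Snhg12 alone could be measured. H19 lay below 0 in 11 of 12 alternatives, all but spike-in scaling.

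**Figure D5:**
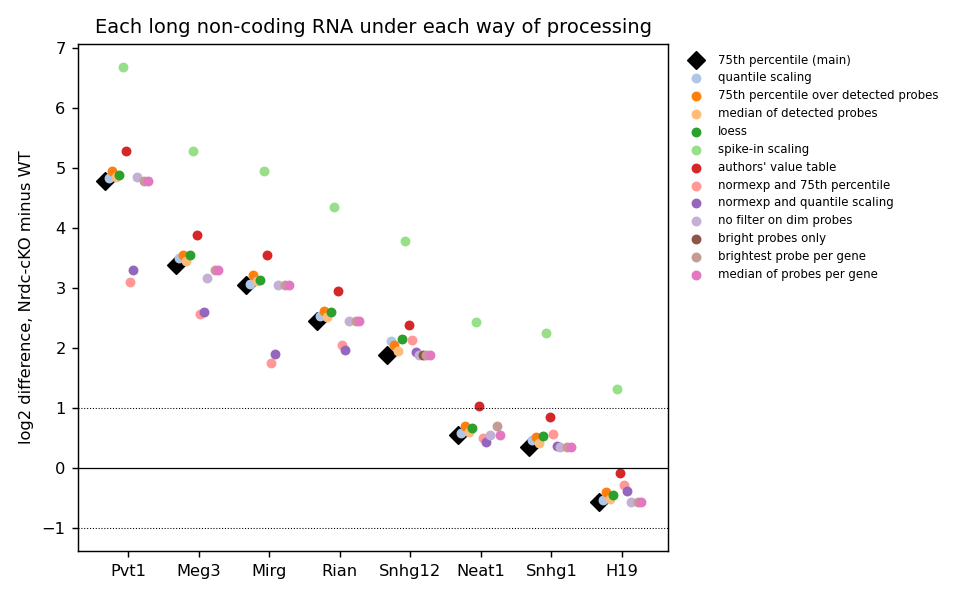
Log2 difference, Nrdc-cKO minus WT (y axis), of each measured long non-coding RNA under the setting used in the text (black diamonds) and its alternatives (circles), with dotted lines at 2-fold. The spike-in points lie about 1.90 above the diamonds for every RNA, and both normexp points of Pvt1, at 3.1 and 3.30, lie below its diamond at 4.79.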

How the data were processed

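The deposited scanner files gave the processed intensity of each spot, which is linear, corrected for background within the array and not normalized between arrays, per the file headers. The software was Agilent Feature Extraction, for which the file headers give 12.0.3.1 and the submitters' processing notes 11.5.1.1. In the authors' deposited value table each array's intensity was the scanner's times a constant (WT 4.37, Nrdc-cKO 1.92), linear and uncentred, with medians of 42.5 and 66.0; no source used here gives their basis.

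Outlier spots (WT 80, Nrdc-cKO 74) were dropped from the 59305 non-control spots, leaving 56604 probes, with 0 saturated spots. After log2 and averaging of repeat spots, the 75th percentile of these probes was subtracted per array. Detection of a probe needed a share of 0.5 or more of its spots well above background. A gene's difference was the mean of the probes that both arrays detected, and 2-fold was the threshold. A probe detected on 1 array only was given a bound: the bright level against the higher of the probe's own level and the lowest detected level on the array where it was dim. The words at least refer to this bound under the scaling used here. It is not a firm limit, as another background correction can give a smaller difference.

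Of 35885 probes with a RefSeq accession, 32993 (91.9%) were named through a RefSeq gene table of GRCm38.p6, matched without versions. Since the array was designed on another build, that table gave names and order only; neighbours are the 3 nearest genes on each side, without clone and predicted symbols. The members and the lists of genes were chosen with earlier results of these data known. Named are all members, Nrdc, the 2 highest and 2 lowest genes of each list with those past 2-fold where 5 or fewer were, neighbours past 2-fold, and Myc, Igf2, Dlk1, Nono, Sfpq and Upf1; other neighbours and list genes were named after their values were seen. Gene values were tested on simulated data. Python 3.11.15 and limma 3.58.1 (normexp on median spot signals, offset 50) were used. With 1 array per group no test was possible, and the number of arrays limits the precision. Values of some single neighbours and markers are not reported here.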

Additional observations from a re-analysis of the deposited data

How the results depend on the processing

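No paired analysis was possible because WT and Nrdc-cKO had 1 array each, and no replicate could be left out. The alternative of matching by gene name was not run: the scanner tables hold accessions only. Differences relative to the median gene were added after seeing the data. Unless stated, the cause was not tested. The Pvt1 difference, 4.79, was 6.68 under spike-in scaling, 5.28 by the value table, 3.1 for normexp plus 75th percentile, 3.30 for normexp plus quantile, and 4.97 relative to the median gene. Members at least 2-fold higher, 5 in the text, came to 8 under spike-in scaling and 1 for bright probes alone, where fewer members could be measured. All genes at least 2-fold higher, 1666, came to 10381 under spike-in scaling, 2888 by the value table, 3108 without a filter for dim probes, 270 for bright probes alone, 2617 at 1.5-fold and 485 at 4-fold. All genes at least 2-fold lower, 2252, came to 1386 under loess, 115 under spike-in scaling, 1074 by the value table, 1146 for normexp plus 75th percentile, 847 for normexp plus quantile, 8013 without a filter, 1129 for bright probes alone, 4065 at 1.5-fold and 390 at 4-fold.

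List medians are given relative to the median of all genes, which removes a shift common to all genes. With normexp and 75th percentile scaling, snoRNA hosts moved from 0.38 to 0.56, other long non-coding RNAs from 0.56 to 0.32, the Myc list from -0.74 to -0.34 and ribonucleoproteins from -0.041 to 0.28. With normexp and quantile scaling, other long non-coding RNAs stood at 0.33 and the Myc list at -0.54. With no filter the medians were 0.61 for snoRNA hosts, 0.10 for other long non-coding RNAs, 0.65 for paraspeckle proteins, 0.55 for nuclear speckle proteins, -0.46 for the Myc list and 0.25 for ribonucleoproteins. With bright probes only they were 0.84 for other long non-coding RNAs, 0.47 for imprinted genes, -0.16 for the Myc list, 0.19 for ribonucleoproteins and 0.40 for decay factors. With the brightest probe per gene the Myc list stood at -0.45. Low signal on the WT array limits Pvt1, Mirg and the dimmer probes of Meg3 most. The brightest Meg3 probe had a WT signal of 200.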
